A study of Mus musculus with 12 samples.

Results

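The 39 genes described here encode the DNA replication machinery: the factors that license replication origins, the helicase and its activators, the polymerases and primase, the sliding clamp with its loader, the single-strand binding complex, the enzymes that join Okazaki fragments and the enzymes that make deoxynucleotides. They were taken by gene symbol, and all 39 had a row among the 56832 rows of the count table. RNA was sequenced from mouse bone marrow macrophages, gated by flow cytometry as CD45+, F4/80+, Ly6g- and Ly6c-. The leukemic group held 3 female and 3 male libraries, labelled day 11, from mice in late disease after they had received leukemic cells of the bcCML model, a blast-crisis chronic myeloid leukemia. The non-leukemic group held 3 female and 3 male libraries from healthy mice, for which the labels give no transplant, strain or age.

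In dividing cells, the origin recognition complex with CDC6 and CDT1 loads the MCM helicase onto DNA before S phase, and CDC45 and the GINS complex later turn that helicase into a moving fork. Primase and the polymerases then copy the strands, held on DNA by the clamp PCNA, while RPA covers single-stranded DNA. Transcription of many of these genes is driven by E2F factors at the passage into S phase, so their transcripts are commonly read as a sign of how many cells are cycling. Most mature tissue macrophages are quiescent, and marrow precursors of red cells and granulocytes are among the fastest-dividing cells of the body.

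Total counts were 22437689 to 30014855 in leukemic and 16911827 to 26611831 in non-leukemic libraries, and 15758 genes passed the filter on low counts, all 39 replication genes among them. Levels are given as CPM, counts scaled by the library total, which are not corrected for gene length. In both conditions the libraries held the genes of the sorted antigens and also markers of other cells. Ptprc, the gene of CD45, ran from 259 to 811 CPM in leukemic and from 305 to 425 CPM in non-leukemic libraries. In the edgeR test given below it was higher in leukemic libraries (adjusted p = 0.0238). Despite the gate, Ly6g had 4.76 to 24.2 CPM in leukemic and 31.1 to 77.9 CPM in non-leukemic libraries. Ly6c2 had 121 to 410 CPM and 173 to 450 CPM in the same order, and Ly6c1 at most 1.55 CPM. Adgre1, the gene of F4/80, ran from 28.4 to 60.6 CPM in leukemic and from 75.9 to 258 CPM in non-leukemic libraries, while 10 neutrophil genes summed to 6796 to 19110 CPM in leukemic and 23100.5 to 55797 CPM in non-leukemic libraries despite the Ly6g- gate. Of 16 macrophage genes, 10 were lower in leukemic libraries, with sums of 587 to 1305 CPM against 1677 to 5191 CPM in non-leukemic libraries.

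A pair of libraries stood apart. Male non-leukemic replicate 3 had the lowest value of the non-leukemic libraries for 39 of the 39 replication genes, and also the highest macrophage sum, 5191 CPM, where the other 5 non-leukemic libraries had 1677 to 2136 CPM. Female leukemic replicate 1 had 17891 genes detected, against 19964 to 21247 in the other leukemic libraries. Among the 39 genes, its long transcripts were low. Counts over the 39 genes, and the results of some single genes, are also given without 1 or both of these libraries. Male non-leukemic replicate 3 was picked in part by its replication values. Calls gained without it, and groups that no longer overlap without it, are therefore no independent support. Nothing in the labels ties a library to an animal of its own, so the p values measure only the spread among libraries, which may be technical.

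Replication genes were lower in the leukemic libraries. With edgeR's quasi-likelihood test, adjusted by Benjamini and Hochberg over all genes tested, 22 of the 39 fell, none rose and 17 did not pass an adjusted p of 0.05. Among all genes tested 9.2% fell. The median log2 fold change, leukemic over non-leukemic, was -0.53 over the 39 genes and -0.01 over all genes tested, and 38 of the 39 values were below 0, the exception being Pold2 at 0.08. The summed level of the 39 genes was 7124, 9131 and 9754 CPM (lowest, median and highest of 6) in leukemic libraries. In non-leukemic libraries it was 7558, 13367 and 15457 CPM. Without male non-leukemic replicate 3 the lowest non-leukemic sum was 10850.2 CPM, and the groups no longer overlapped. That library was set apart partly by these same values, so leaving it out had to raise the lowest non-leukemic sum. In bulk RNA, fewer cells of a type and less RNA per cell cannot be told apart.

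**Figure D1:**
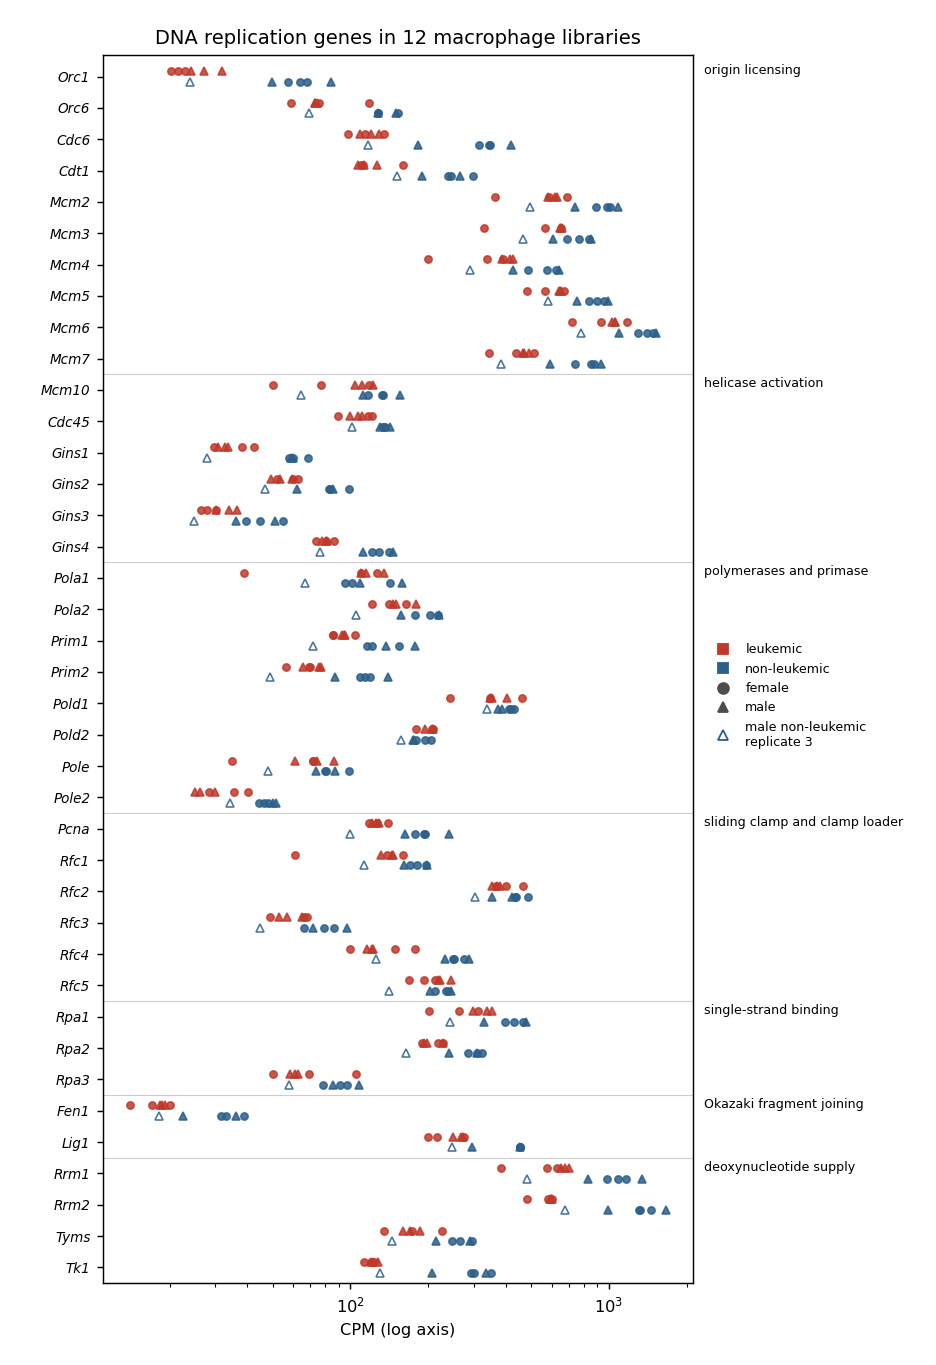
CPM on a log axis of each of 39 replication genes in 6 leukemic (red) and 6 non-leukemic (blue) libraries, with circles for females and triangles for males, grouped by role. The open triangle is male non-leukemic replicate 3, which is the lowest of the non-leukemic libraries for every gene drawn and lies among the leukemic points for most of them.

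The 5 largest falls were those of the licensing factor Cdc6, at -1.33, Orc1, at -1.30, Tk1, at -1.20, Rrm2, at -1.16, and Cdt1, at -0.99 on the log2 scale. These 5 were also the replication genes that passed when the test asked for a change beyond 1.5-fold, which 3.43% of all genes passed as lower. They passed, too, in each of 21 alternative analyses of the same comparison. To show which letters the genes that moved most carry near their starts, the promoters of these 5 genes are printed. The sequences are RefSeq promoters of the mouse build GRCm38.p6, from 250 bases before the transcription start to 50 after it, on the strand of the gene. Capitals mark the letters TTTCCCGC, TTTGGCGC, TTTCGCGC or TTTGCCGC, which resemble E2F binding sites, or their reverse complements. The windows are chr11:98907901-98908200 for Cdc6, chr4:108579204-108579503 for Orc1, chr12:24708004-24708303 for Rrm2 and chr8:122567765-122568064 for Cdt1, all on the plus strand, and chr11:117825965-117826264 for Tk1, on the minus strand.
Cdc6: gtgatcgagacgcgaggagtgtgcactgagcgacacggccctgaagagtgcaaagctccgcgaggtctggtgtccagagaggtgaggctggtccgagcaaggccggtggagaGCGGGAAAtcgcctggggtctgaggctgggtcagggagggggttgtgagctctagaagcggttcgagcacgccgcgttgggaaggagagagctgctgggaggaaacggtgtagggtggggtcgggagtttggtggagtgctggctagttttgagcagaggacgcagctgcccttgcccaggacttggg
Orc1: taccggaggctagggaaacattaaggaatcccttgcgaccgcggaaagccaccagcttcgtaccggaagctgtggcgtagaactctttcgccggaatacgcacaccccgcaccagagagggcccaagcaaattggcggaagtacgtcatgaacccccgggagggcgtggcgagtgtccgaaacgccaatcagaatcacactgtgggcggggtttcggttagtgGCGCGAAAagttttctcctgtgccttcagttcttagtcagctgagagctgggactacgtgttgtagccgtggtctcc
Tk1: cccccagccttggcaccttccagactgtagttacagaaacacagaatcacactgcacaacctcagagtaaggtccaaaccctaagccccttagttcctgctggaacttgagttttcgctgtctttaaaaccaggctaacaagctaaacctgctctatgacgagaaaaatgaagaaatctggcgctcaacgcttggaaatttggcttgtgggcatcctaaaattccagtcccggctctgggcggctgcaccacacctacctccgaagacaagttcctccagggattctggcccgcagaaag
Rrm2: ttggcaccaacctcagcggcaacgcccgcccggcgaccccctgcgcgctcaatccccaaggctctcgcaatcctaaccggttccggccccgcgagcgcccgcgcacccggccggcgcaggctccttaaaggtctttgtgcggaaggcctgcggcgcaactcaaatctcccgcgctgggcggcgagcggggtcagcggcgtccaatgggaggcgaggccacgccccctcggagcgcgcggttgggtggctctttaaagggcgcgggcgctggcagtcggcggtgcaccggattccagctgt
Cdt1: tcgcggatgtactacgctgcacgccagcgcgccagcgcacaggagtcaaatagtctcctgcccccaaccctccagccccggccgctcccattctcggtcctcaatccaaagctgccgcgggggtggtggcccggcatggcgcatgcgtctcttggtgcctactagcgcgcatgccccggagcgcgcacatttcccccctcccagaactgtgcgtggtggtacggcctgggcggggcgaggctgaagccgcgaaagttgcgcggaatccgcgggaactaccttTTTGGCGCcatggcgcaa

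In these windows, Orc1 had GCGCGAAA with its first base 27 bases before the start and Cdc6 had GCGGGAAA 138 bases before it. Cdt1 had TTTGGCGC 33 bases after the start. Tk1 and Rrm2 held none of these letters. Of the 39 genes, 32 had an entry in the promoter table and 13 of them, 40.6%, held at least 1 match on either strand, while 704 of all 27025 genes with an entry, 2.61%, did. Among genes that passed the count filter the share was 4.59%. Matches were as frequent in replication genes that fell, 7 of 17, as in those that did not pass, 6 of 15. A match of letters does not show that a factor binds there.

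Of 10 origin licensing genes, 8 fell, the median being -0.69 on the log2 scale, and Mcm3 and Mcm6 did not pass. Orc1 encodes the largest subunit of the origin recognition complex, the subunit whose level is known to change with the cell cycle. Its level was 20.3, 23.6 and 31.9 CPM (lowest, median and highest) in leukemic and 24.0, 60.8 and 83.8 CPM in non-leukemic libraries. The non-leukemic value of 24.0 CPM came from male replicate 3, and the other 5 lay at 49.9 to 83.8 CPM, above every leukemic library. The log2 change was -1.30 ± 0.23 (SE, adjusted p = 0.00186), a level 2.46-fold lower in leukemic libraries.

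Cdc6, the ATPase that joins the origin complex to load the helicase, had 97.8, 117 and 135 CPM in leukemic and 117, 329 and 417 CPM in non-leukemic libraries. Again only male non-leukemic replicate 3 overlapped the leukemic range, and the other 5 had 183 to 417 CPM. The fall was -1.33 ± 0.24 (SE, adjusted p = 0.00199) on the log2 scale. Cdt1, which brings the helicase to CDC6 and is destroyed once S phase starts, had 107, 113 and 159.6 CPM in leukemic and 152, 241 and 298 CPM in non-leukemic libraries, a log2 change of -0.99 ± 0.13 (SE, adjusted p = 0.000296). Orc6, the smallest subunit of the origin complex, changed by -0.72 ± 0.20 (SE, adjusted p = 0.0266). Female leukemic replicate 1, at 118 CPM, was far above the other leukemic libraries for Orc6, and without it the log2 fold change was -0.90 (adjusted p = 0.00184). The call of Orc6 was lost without any single library other than female leukemic replicate 1, female non-leukemic replicates 2 and 3 and male non-leukemic replicate 3, with adjusted p up to 0.0831.

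The helicase itself is a ring of MCM2 to MCM7. Mcm7 had 344, 467 and 514 CPM in leukemic and 383, 797 and 931 CPM in non-leukemic libraries, a log2 change of -0.75 ± 0.17 (SE, adjusted p = 0.00878). Mcm5 had 481, 646 and 668 CPM in leukemic and 579, 868 and 990.3 CPM in non-leukemic libraries, which changed it by -0.53 ± 0.12 (SE, adjusted p = 0.00847). For both genes all 6 leukemic libraries lay below the 5 non-leukemic libraries other than male replicate 3. The same held for 7.23% of all genes tested, and that library was set apart partly by its replication values. Mcm2 changed by -0.66 ± 0.17 (SE, adjusted p = 0.0172) and Mcm4 by -0.58 ± 0.19 (SE, adjusted p = 0.049), and these calls were less firm. Without male non-leukemic replicate 1, the adjusted p was 0.0602 for Mcm2 and 0.161 for Mcm4, and the call of Mcm4 was also lost without any other library except male non-leukemic replicate 3.

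Mcm3 had 329, 647 and 659 CPM in leukemic and 465, 725 and 854 CPM in non-leukemic libraries, a log2 change of -0.35 ± 0.16 (SE, adjusted p = 0.165), and Mcm6 changed by -0.42 ± 0.15 (SE, adjusted p = 0.0676). The ring holds equal numbers of each subunit, and the log2 fold changes of its transcripts ran from -0.75 for Mcm7 to -0.35 for Mcm3, with no test between subunits. Without male non-leukemic replicate 3, Mcm6 passed at -0.52 (adjusted p = 0.00892) and Mcm3 did not, at -0.45 (adjusted p = 0.0517). Female leukemic replicate 1 had 329 CPM of Mcm3, the lowest value of all 12 libraries. Without that library Mcm3 changed by -0.22 (adjusted p = 0.2355) and Mcm6 by -0.33 (adjusted p = 0.0967).

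Genes that turn the loaded helicase into an active fork fell in 3 of 6 cases, with a median of -0.50. GINS1 to GINS4 form the GINS complex, which sits on the MCM ring beside CDC45. Gins1 had 29.6, 33.2 and 42.4 CPM in leukemic and 27.9, 59.5 and 68.7 CPM in non-leukemic libraries, and the non-leukemic value of 27.9 CPM, from male replicate 3, was below all leukemic libraries. The other 5 non-leukemic libraries had 57.8 to 68.7 CPM, above all leukemic ones, and the log2 fold change over all libraries was -0.74 ± 0.17 (SE, adjusted p = 0.0102). Gins4 had 73.4, 80.3 and 86.5 CPM in leukemic and 76.5, 125 and 146 CPM in non-leukemic libraries, a change of -0.66 ± 0.13 (SE, adjusted p = 0.00469). Gins2 changed by -0.50 ± 0.14 (SE, adjusted p = 0.0275), a call lost without any single library other than female leukemic replicate 1, male leukemic replicate 2 and male non-leukemic replicates 2 and 3, with adjusted p up to 0.0936. In the GENCODE M21 annotation 67.3% of the exon bases of Gins2 are shared with Gse1 on the opposite strand, and without strand information the reads of these genes cannot be told apart.

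The remaining activators did not pass. Gins3 changed by -0.50 (adjusted p = 0.0526), Cdc45 by -0.33 (adjusted p = 0.0541) and Mcm10, which helps the helicase to unwind the origin, by -0.39 (adjusted p = 0.23) on the log2 scale. Their values overlapped between conditions, with 89.8, 109 and 121 CPM of Cdc45 in leukemic and 101, 134 and 142 CPM in non-leukemic libraries. All 3 passed without male non-leukemic replicate 3, with log2 fold changes of -0.61, -0.37 and -0.53 and adjusted p of 0.00862, 0.0341 and 0.0491 in the order named. Without female leukemic replicate 1 only Cdc45 passed, at -0.38 (adjusted p = 0.013). Gins3 was then at -0.49 (adjusted p = 0.062) and Mcm10 at -0.24 (adjusted p = 0.367).

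The polymerases and primase had the smallest median change of the 7 roles. Of their 8 genes, 2 fell, and the median of the 8 was -0.32 on the log2 scale. Pole2, the second subunit of polymerase epsilon, which copies the leading strand, had 25.0, 29.1 and 40.3 CPM in leukemic and 34.4, 47.2 and 51.5 CPM in non-leukemic libraries. Its change was -0.65 ± 0.14 (SE, adjusted p = 0.00761), and male non-leukemic replicate 3, at 34.4 CPM, was the only non-leukemic library inside the leukemic range. Prim2, the large primase subunit, had 56.5, 69.7 and 76.9 CPM in leukemic and 48.7, 111 and 140.2 CPM in non-leukemic libraries and changed by -0.64 ± 0.19 (SE, adjusted p = 0.0302). This call was lost without any single library other than male non-leukemic replicates 2 and 3 and female leukemic replicate 1, with adjusted p up to 0.104. Its partner Prim1, the subunit that makes the RNA primer, changed by -0.54 ± 0.18 (SE, adjusted p = 0.0522).

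The catalytic subunits of the replicative polymerases showed no call. Pole changed by -0.31 (adjusted p = 0.297), Pold1 by -0.21 (adjusted p = 0.227) and Pola1 by -0.19 (adjusted p = 0.668). The accessory subunits Pola2 and Pold2 changed by -0.33 (adjusted p = 0.16) and 0.08 (adjusted p = 0.614). Pold2, which links the catalytic subunit of polymerase delta to the rest of the enzyme, had 179, 207 and 209 CPM in leukemic and 157, 178 and 206 CPM in non-leukemic libraries. The leukemic median was above the highest non-leukemic library, and the ranges overlapped in part. For Pola1 the leukemic values were 38.9, 112 and 135 CPM and the non-leukemic 66.8, 105 and 158 CPM, and the lowest of them belonged to female leukemic replicate 1. Without that library the change of Pola1 was -0.00079 (adjusted p = 0.998).

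**Figure D2:**
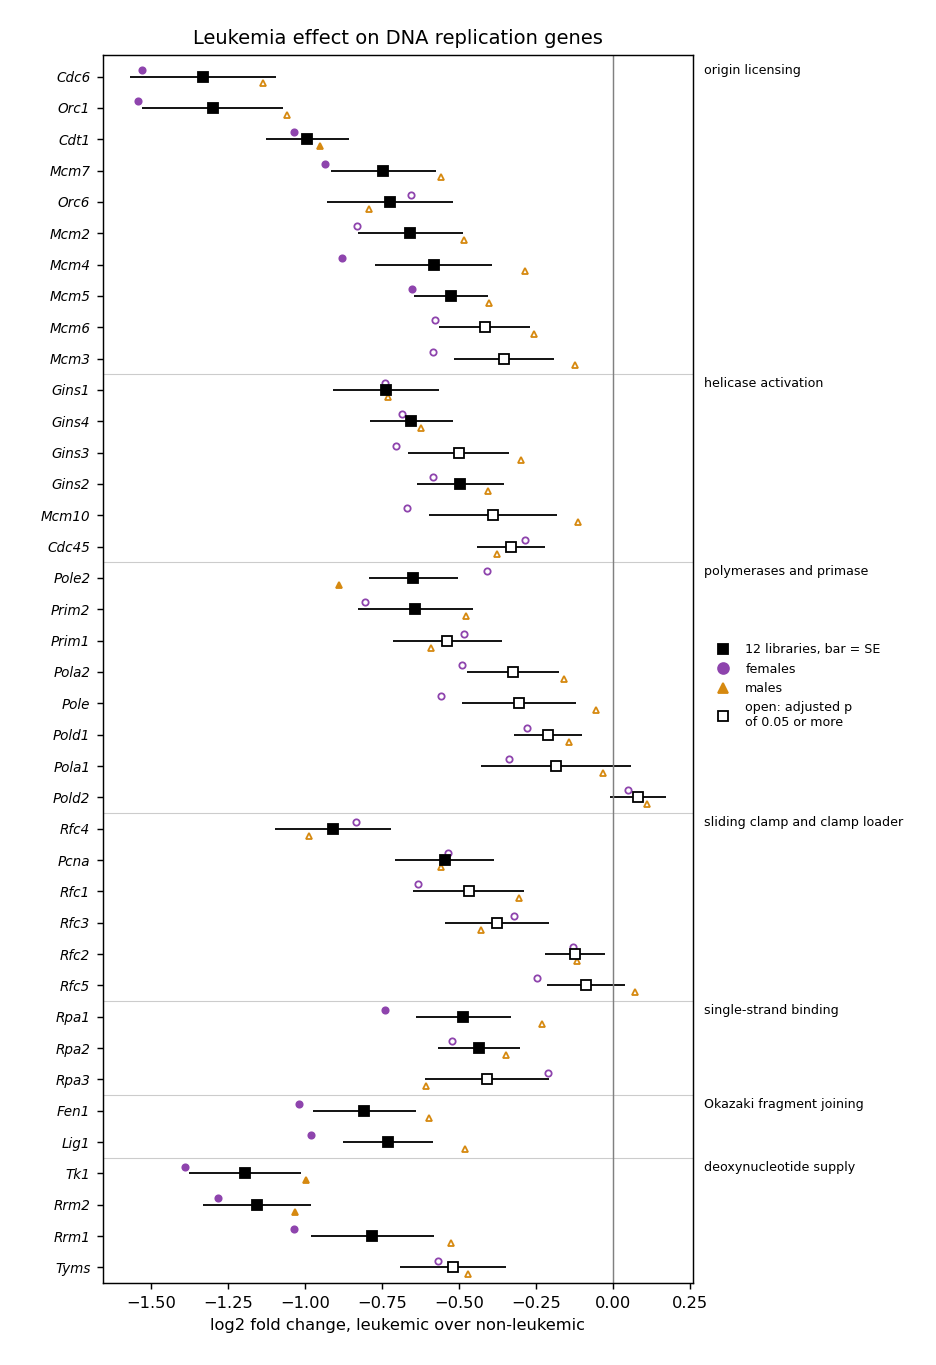
Log2 fold change, leukemic over non-leukemic, of 39 replication genes, ordered within each role. Squares show the value over 12 libraries with its standard error, circles the value in females and triangles that in males, and open symbols have an adjusted p of 0.05 or more. Among the squares, Cdc6, Orc1, Tk1, Rrm2 and Cdt1 lie farthest left, and Pold2, Rfc5 and Rfc2 lie nearest 0.

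Clamp and clamp loader genes fell in 2 of 6 cases, with a median of -0.42. Pcna, the ring that holds polymerases on DNA, had 118, 127 and 140.2 CPM in leukemic and 100.1, 185 and 241 CPM in non-leukemic libraries. The lowest of the non-leukemic values, from male replicate 3, was below all leukemic libraries, and the other 5 lay above them at 162 to 241 CPM. Pcna changed by -0.55 ± 0.16 (SE, adjusted p = 0.0323), and this call was lost without the same single libraries as that of Prim2, with adjusted p up to 0.0917. The table lists the pseudogenes Pcna-ps1 with at most 1 count and Pcna-ps2 with 28 to 87 counts per library, so few reads were assigned to those copies.

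Rfc4, a small subunit of the loader that opens the PCNA ring, had the steepest fall of the group. Its level was 99.6, 121 and 178 CPM in leukemic and 126, 250.02 and 288 CPM in non-leukemic libraries, a change of -0.91 ± 0.19 (SE, adjusted p = 0.00482). The other loader subunits did not pass. Rfc1, the large subunit, changed by -0.47 (adjusted p = 0.0947), Rfc3 by -0.38 (adjusted p = 0.151), Rfc2 by -0.12 (adjusted p = 0.446) and Rfc5 by -0.09 (adjusted p = 0.698). Loader subunits join in equal numbers, and as with the MCM ring the transcripts spread, from -0.91 for Rfc4 to -0.09 for Rfc5, a spread that was not tested. Rfc1 and Rfc3 passed without male non-leukemic replicate 3, at -0.56 (adjusted p = 0.043) and -0.47 (adjusted p = 0.0444). Neither passed without female leukemic replicate 1, at -0.31 (adjusted p = 0.0634) and -0.44 (adjusted p = 0.069).

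RPA, the trimer that covers single-stranded DNA at the fork, had 2 of 3 genes lower and a median of -0.44. Rpa1, the large DNA-binding subunit, had 201, 305 and 352 CPM in leukemic and 243, 413 and 477 CPM in non-leukemic libraries, a change of -0.49 ± 0.15 (SE, adjusted p = 0.0458). Rpa2 had 189, 208 and 228 CPM in leukemic and 164, 297 and 323 CPM in non-leukemic libraries, a change of -0.44 ± 0.13 (SE, adjusted p = 0.0372). Both calls were close to the threshold. That of Rpa1 was lost without any single library other than male non-leukemic replicates 2 and 3, with adjusted p up to 0.154, and that of Rpa2 without any other than male non-leukemic replicate 3 and female leukemic replicate 1, with adjusted p up to 0.128. Rpa3, the small subunit, changed by -0.41 ± 0.20 (SE, adjusted p = 0.193). Female leukemic replicate 1 had 105 CPM of Rpa3, far above the other leukemic libraries, and without it Rpa3 passed at -0.60 (adjusted p = 0.0073).

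Both enzymes that finish lagging-strand fragments fell. Lig1, the ligase that seals them, had 199, 259 and 274 CPM in leukemic and 248, 452 and 454 CPM in non-leukemic libraries, and changed by -0.73 ± 0.14 (SE, adjusted p = 0.00381). Male non-leukemic replicate 3, at 248 CPM, was inside the leukemic range, and the other 5 non-leukemic libraries were above it. Fen1, the nuclease that trims the flap before ligation, had 14.0, 18.5 and 20.04 CPM in leukemic and 18.3, 32.3 and 38.7 CPM in non-leukemic libraries, and changed by -0.81 ± 0.17 (SE, adjusted p = 0.00491). In the GENCODE M21 annotation 84.2% of the exon bases of Fen1 are shared with genes on the opposite strand, among them Tmem258, so its level and change are uncertain. Of the 39 genes, 7 shared more than 10% of their exon bases with another gene, and after Fen1 and Gins2 the highest share was that of Rfc2, at 15.1%.

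Enzymes of deoxynucleotide supply had the lowest median of the 7 roles, -0.97, and 3 of 4 genes were lower. Rrm2, the subunit that limits ribonucleotide reductase and is made in S phase, had 479.8, 594 and 604 CPM in leukemic and 676, 1316 and 1659 CPM in non-leukemic libraries. All 6 leukemic libraries were below all 6 non-leukemic ones, and the change was -1.16 ± 0.18 (SE, adjusted p = 0.000653), a level 2.23-fold lower. Tk1, the thymidine kinase of the salvage route, likewise did not overlap, with 113, 121 and 128 CPM in leukemic and 129.7, 297 and 349 CPM in non-leukemic libraries. Its change was -1.20 ± 0.18 (SE, adjusted p = 0.000661), a level 2.29-fold lower. Rrm2 and Tk1 were the only 2 of the 39 genes whose leukemic libraries all lay below all non-leukemic ones, which 3.63% of all genes tested did.

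Rrm1, the large reductase subunit, had 384, 639.8 and 699.8 CPM in leukemic and 482, 1032 and 1346 CPM in non-leukemic libraries. Its change was -0.78 ± 0.20 (SE, adjusted p = 0.0163), and without male non-leukemic replicate 1 the adjusted p was 0.0599. Tyms, which makes thymidylate and is the target of fluorouracil, had 135, 172 and 227 CPM in leukemic and 145, 256 and 296 CPM in non-leukemic libraries. The change of Tyms, -0.52 ± 0.17 (SE, adjusted p = 0.053), missed the threshold. It passed without female leukemic replicate 1, at -0.63 (adjusted p = 0.0102), and without male non-leukemic replicate 3, at -0.61 (adjusted p = 0.0166).

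Corrected for transcript length, the order of levels was similar in both conditions. Divided by the longest coding transcript of GENCODE M21, Rrm2 ranked first in both, with median levels of 271 CPM per kilobase in leukemic and 600.0 CPM per kilobase in non-leukemic libraries. Mcm6 came second, with 239 in leukemic and 309.7 CPM per kilobase in non-leukemic libraries. Tk1 ranked 14 in leukemic and 8 in non-leukemic libraries, and Pold2 ranked 8 in leukemic and 17 in non-leukemic libraries. No difference between neighbours in this order was tested.

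Within each sex most values were below 0, for 38 of the 39 genes in females and 37 in males, and more genes passed the threshold in females. In females 12 of the 39 genes were lower, against 4.59% of all genes, and the median log2 fold change was -0.65. In males 4 were lower, against 4.04% of all genes, with a median of -0.47. The median in males rested in part on male non-leukemic replicate 1, without which it was -0.155, with 27 of the 39 values below 0. Cdt1, Rrm2 and Tk1 passed in both sexes, and Pole2 passed in males, at -0.89 (adjusted p = 0.0138), but not in females, at -0.41 (adjusted p = 0.207). The log2 fold change was lower in females than in males for 31 genes and higher for 8, with a median difference of -0.30. Without male non-leukemic replicate 3 it was lower for 26 and higher for 13, with a median difference of -0.09.

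A difference between the sexes was not shown. For the interaction of sex and leukemia, none of the 39 genes passed with edgeR, none had an unadjusted p under 0.05, and 0% of all genes passed, with 925 of them at an unadjusted p under 0.05. DESeq2 called 23 genes for the interaction and none of the 39. Without male non-leukemic replicate 1, 19 of the 39 and 2060 of all genes had an unadjusted p under 0.05 for the interaction in edgeR, the median difference was -0.49, and still no gene passed after adjustment. Without each of the other libraries in turn, 0 or 1 of the 39 had an unadjusted p under 0.05. These within-sex counts rest on 3 libraries a group and moved with single libraries. The share of all genes that were lower moved too, from 1.72% to 5.56% in females and from 1.56% to 6.77% in males when each library was left out. In females the count of 12 became 20 without male non-leukemic replicate 3, 7 without female leukemic replicate 2 or any of the male leukemic replicates, 6 without female non-leukemic replicate 2, 5 without female non-leukemic replicate 3, 4 without female leukemic replicate 3 and 2 without female non-leukemic replicate 1. In males the count of 4 became 16 without male non-leukemic replicate 3, 7 without female leukemic replicate 1, 2 without female non-leukemic replicate 1, male leukemic replicate 1 or male non-leukemic replicate 2, 1 without male non-leukemic replicate 1, and 0 without male leukemic replicate 2 or 3.

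In females all leukemic libraries were below all non-leukemic ones for 32 of the 39 genes, against 14.6% of all genes, and in males for 5, against 10.7%. Male non-leukemic replicate 3 is the library that set this count in males. Its level was 0.34 to 0.876 of the median of the other 5 non-leukemic libraries over the 39 genes, with a median ratio of 0.554. Over all genes its median ratio was 0.921, and 14.1% of genes had a ratio at or below 0.554. Its neutrophil sum, 55797 CPM, was also the highest and its erythroid sum, 17222 CPM, the lowest of the non-leukemic libraries, where the other 5 had 23100.5 to 47540 CPM and 19908 to 25192 CPM. The part of these other cells in its low replication genes was not tested.

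Without this library 31 of the 39 genes were lower, against 9.94% of all genes, and the 22 genes called with all libraries were among them. All leukemic libraries then lay below the remaining non-leukemic ones for 23 of the 39 genes, against 7.23% of all genes. These higher counts follow in part from leaving out the non-leukemic library that was lowest for all 39 genes. Without both libraries that stood apart, 33 were lower, against 14.1% of all genes, with a median log2 fold change of -0.65. Leaving out male non-leukemic replicate 1, which had the highest summed level, cut the count to 13, against 6.14% of all genes. These 13 genes kept the call without any single library: Orc1, Cdc6, Cdt1, Mcm5, Mcm7, Gins1, Gins4, Pole2, Rfc4, Fen1, Lig1, Rrm2 and Tk1. The share of all genes that kept a call in every such fit was not counted. For Fen1, which shares 84.2% of its exon bases with opposite-strand genes, the change remains uncertain.

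**Figure D3:**
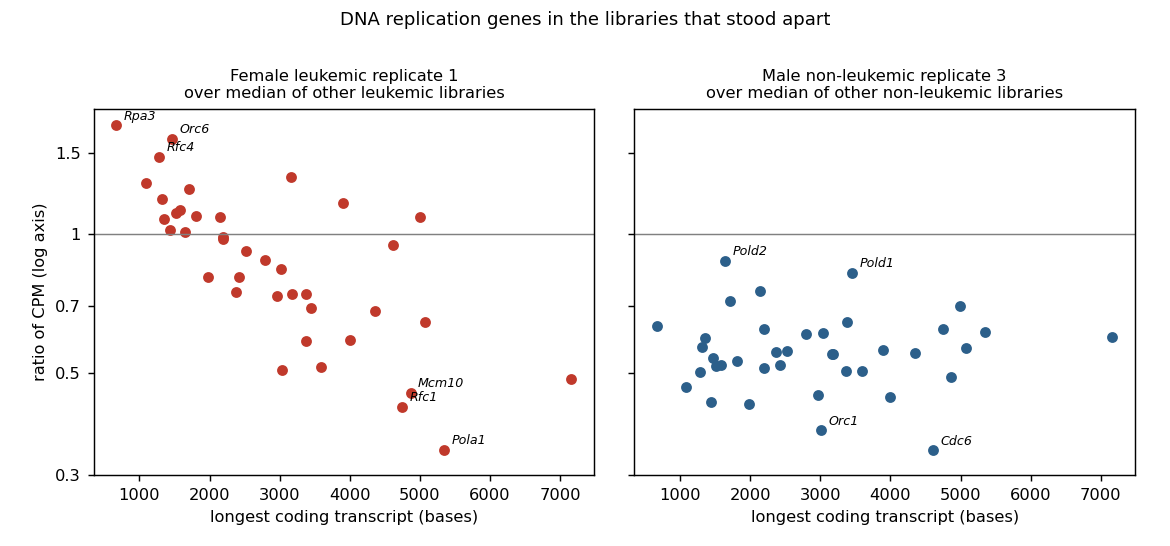
Level of each of 39 replication genes in female leukemic replicate 1 over the median of the other leukemic libraries (left) and in male non-leukemic replicate 3 over the median of the other non-leukemic libraries (right), on a log axis, against the length of the longest coding transcript in bases. The left ratios fall with length, with a median of 1.08 for 20 shorter and 0.682 for 19 longer genes, and the right ratios lie below 1 at all lengths.

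In female leukemic replicate 1 the replication genes followed transcript length. Its ratio to the median of the other leukemic libraries ran from 0.34 for Pola1 to 1.72 for Rpa3, and the Spearman correlation of this ratio with length was -0.75 over the 39 genes, which share that library. For male non-leukemic replicate 3 the same correlation was 0.08. The ratio had a median of 1.08 over 20 genes with transcripts of up to 2796 bases and of 0.682 over 19 longer ones, where all genes had a median of 0.796. This library was the lowest of the leukemic libraries for 18 genes and the highest for 11. Without it 24 of the 39 genes were lower, against 12% of all genes.

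Among genes that act with the 39, those that passed the test fell. Of 37 other replication factors, 16 fell, against 9.2% of all genes tested, none rose and 21 did not pass, with a median of -0.46. Among them were Orc5, another origin complex subunit, at -1.03 ± 0.15 (SE, adjusted p = 0.000507), Donson, which helps to assemble the helicase, at -1.05 ± 0.17 (SE, adjusted p = 0.000964), and Gmnn, the inhibitor of CDT1, at -0.82 ± 0.14 (SE, adjusted p = 0.00182). Rnaseh2c, of the nuclease that removes ribonucleotides from DNA, changed by -0.78 ± 0.10 (SE, adjusted p = 0.000259), and Dck, a salvage kinase, by -0.78 ± 0.13 (SE, adjusted p = 0.00146). Top2a, the topoisomerase of dividing cells, had 269, 714 and 790.3 CPM in leukemic and 513, 778 and 935 CPM in non-leukemic libraries, and its change of -0.33 ± 0.19 (SE, adjusted p = 0.269) did not pass. Of 12 genes for chromatin and methylation at the fork, 7 fell, against 9.2% of all genes tested. None rose and 5 did not pass, with a median of -0.52. Slbp, which binds histone transcripts, changed by -0.90 ± 0.15 (SE, adjusted p = 0.00125) and Chaf1b, of the complex that places histones behind the fork, by -0.65 ± 0.14 (SE, adjusted p = 0.00604). Tonsl, which acts in the repair of stalled forks, changed by -0.90 ± 0.22 (SE, adjusted p = 0.012), and Nasp, a histone chaperone, by -0.53 ± 0.14 (SE, adjusted p = 0.0207).

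Regulators of the passage into S phase went both ways. Of 28 such genes, 14 fell and 5 rose, with a median of -0.45. Among all 15758 genes tested, 1373 rose and 9.2% fell. Ccne1, cyclin E1, had 24.9, 61.9 and 77.7 CPM in leukemic and 70.0, 216 and 305 CPM in non-leukemic libraries and fell the most of those named, at -1.93 ± 0.32 (SE, adjusted p = 0.00107). The transcription factor genes E2f2, at -1.48 ± 0.18 (SE, adjusted p = 0.000121), and E2f1, at -0.67 ± 0.15 (SE, adjusted p = 0.00803), fell, as did Tfdp2, at -1.71 ± 0.29 (SE, adjusted p = 0.00144), whose product pairs with E2F proteins. Ccnd3, cyclin D3, changed by -1.14 ± 0.14 (SE, adjusted p = 0.000172), Ccne2 by -1.05 (adjusted p = 0.00227) and Ccna2 by -0.64 (adjusted p = 0.00971). On the other side, Ccnd2, cyclin D2, had 274, 317 and 377 CPM in leukemic and 93.8, 155 and 205 CPM in non-leukemic libraries, without overlap, and rose by 0.99 ± 0.19 (SE, adjusted p = 0.00278). E2f5, a repressive family member, rose by 1.12 ± 0.22 (SE, adjusted p = 0.00381), Cdk6 by 0.41 (adjusted p = 0.0129), Myc by 0.50 (adjusted p = 0.015) and Mycn by 0.74 (adjusted p = 0.0143). These 5 are named because they rose, a choice made after their values were seen.

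Among 7 inhibitors of cyclin-dependent kinases, 3 rose and 1 fell, where 1373 of all 15758 genes tested rose and 9.2% fell. Cdkn1a, which encodes p21, had 34.1, 49.9 and 69.8 CPM in leukemic and 10.8, 16.1 and 43.8 CPM in non-leukemic libraries and rose by 1.25 ± 0.24 (SE, adjusted p = 0.00322). Cdkn2a and Cdkn2b passed as higher, at 0 to 1.81 CPM and 0 to 6.02 CPM in leukemic libraries against 0 to 0.0591 CPM and 0 to 0.688 CPM in non-leukemic ones, too few counts for a fold. Cdkn2d fell, at -0.56 ± 0.14 (SE, adjusted p = 0.0142). Of 12 genes of the replication checkpoint, 3 fell, against 9.2% of all genes tested. None rose and 9 did not pass, with a median of -0.13. Chek1, the kinase that restrains origins under stress, changed by -0.38 ± 0.12 (SE, adjusted p = 0.0414). The phosphatase genes Cdc25c and Cdc25b changed by -0.71 ± 0.18 (SE, adjusted p = 0.0137) and -0.44 ± 0.12 (SE, adjusted p = 0.0204). Atr, the kinase that activates CHK1, did not pass, at 0.57 ± 0.29 (SE, adjusted p = 0.216).

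Of 30 mitosis genes, 15 fell, against 9.2% of all genes tested, and none rose, with a median of -0.45. Mki67, the gene of the proliferation antigen Ki-67, had 69.9, 213 and 243 CPM in leukemic and 294, 437 and 553 CPM in non-leukemic libraries. All its leukemic values lay below all non-leukemic ones, as for 3.63% of all genes tested. Mki67 changed by -1.25 ± 0.24 (SE, adjusted p = 0.0028). Aurka, a spindle kinase, changed by -0.78 ± 0.13 (SE, adjusted p = 0.000964), Birc5, which encodes survivin, by -0.75 ± 0.14 (SE, adjusted p = 0.00267), Cenpa, the centromere histone, by -0.72 ± 0.15 (SE, adjusted p = 0.00461), and Cdk1, the kinase of mitotic entry, by -0.48 ± 0.13 (SE, adjusted p = 0.0204). The comparison of lists by their medians is a description, and no list was tested against another.

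**Figure D4:**
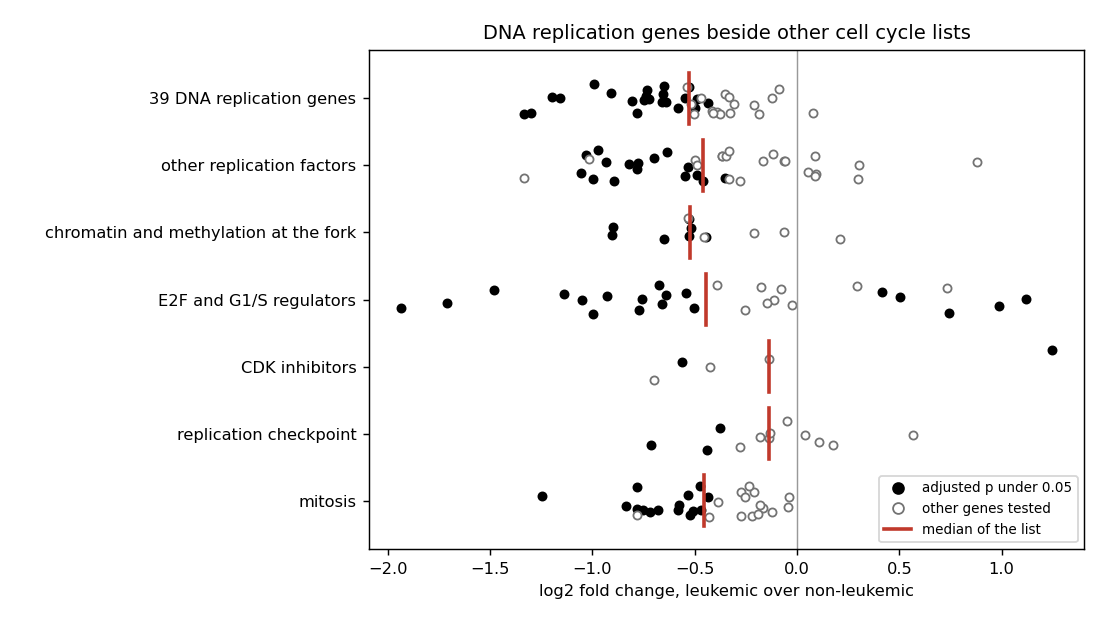
Log2 fold change, leukemic over non-leukemic, of each gene tested in the replication set and in 6 related lists, with filled points for an adjusted p under 0.05 and a red bar at the list's median. Replication, fork chromatin and mitosis genes lie mostly below 0, and genes of G1/S regulators and kinase inhibitors lie on both sides. Cdkn2a and Cdkn2b, which had few counts, are not drawn.

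Markers of several other marrow cells moved with the same contrast, in which 1373 of all 15758 genes tested rose and 9.2% fell. All 12 erythroid genes measured fell, the median on the log2 scale being -4.24, with sums of 1467 to 2671 CPM in leukemic libraries against 17222 to 25192 CPM in non-leukemic libraries, and none of the 12 was at 0 in a library. Of 10 neutrophil genes 8 fell. All 13 T and NK cell genes rose, with sums of 850.4 to 2168 CPM in leukemic libraries against 149 to 364 CPM in non-leukemic libraries. Of 13 genes of stem cells, progenitors and the leukemia model, 7 rose and none fell, with sums of 1239 to 2207 CPM in leukemic libraries against 847 to 1262 CPM in non-leukemic libraries. Of 7 granulocyte precursor genes, Cebpe fell and the other 6 did not pass, with sums of 6843 to 12044 CPM in leukemic libraries against 5573 to 12494 CPM in non-leukemic libraries. Of 12 eosinophil, basophil and mast cell genes, 5 rose and 1 fell, with sums of 11075 to 35955 CPM in leukemic libraries against 5546 to 11078 CPM in non-leukemic libraries. None of 10 B cell genes passed, but their sums were 35539 and 29215 CPM in female leukemic replicates 1 and 3, 2694 to 4627 CPM in the other leukemic libraries and 2835 to 13411 CPM in non-leukemic libraries. Of 9 dendritic cell genes 2 rose and 4 fell, and of 6 megakaryocyte and platelet genes 1 rose and 1 fell. The part of erythroid, granulocytic, lymphoid or leukemic cells in the lower replication genes was not tested.

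**Figure D5:**
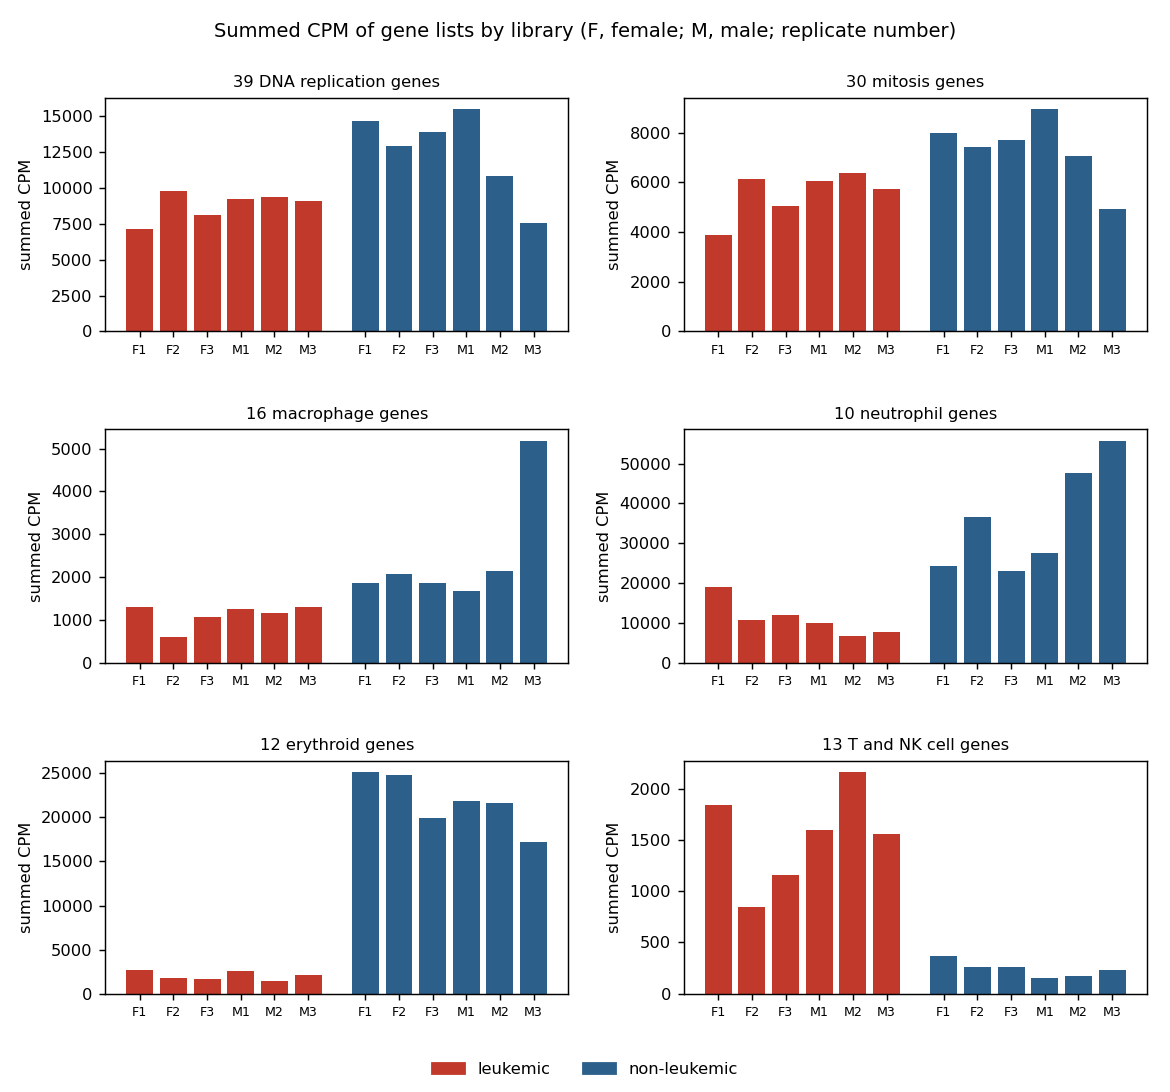
Summed CPM per library of the 39 replication genes, 30 mitosis genes and markers of macrophages, neutrophils, erythroid cells and T and NK cells, with leukemic libraries left of non-leukemic ones in each panel. The replication and mitosis sums are lowest among non-leukemic libraries in male replicate 3, which has the highest macrophage and neutrophil sums, and the erythroid sum separates the conditions in all 12 libraries.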

How the data were processed

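The deposited file holds raw counts per gene, 1 column per library, from the authors, with no normalization. Per the labels' protocols, 1 ng of total RNA was amplified as full-length cDNA with a SMARTer kit and tagmented with Nextera XT, which marks neither strand nor single molecules. The submitters' processing notes list, with no order or settings, STAR 2.7.9a, featureCounts and Subread 2.0.1, the build GRCm39, bcl2fastq 2.19.1, fastp 0.23.1, R 4.0.2 and DESeq2 1.28.1. No test results of the authors were used.

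Counts were filtered with filterByExpr over the 4 groups of sex and condition, scaled by trimmed mean of M values (TMM), and tested with the robust quasi-likelihood F test of edgeR 4.0.16 in R 4.3.3, two-sided, with sex as a term over all 12 libraries. Effects within a sex, the interaction and sex differences were contrasts of 4 group means. P values were adjusted over 15758 genes. A standard error is the log2 fold change divided by the square root of F. CPM use library totals, and 27619 of 56832 genes had no count. Libraries were checked for copies: chi-square per degree of freedom was at least 24.67 within groups. Fits were tested on simulated data.

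The 39 genes and all lists were chosen with earlier results of these data known, so they give no independent evidence. All 39 are named. Of each list of related cell cycle genes, the 4 with the lowest p and 9 fixed genes are named. Of each cell list counts and sums are given, and of the sort gate genes the ranges. Alternatives were relative log expression (RLE) factors, DESeq2 1.42.0, limma-voom 3.58.1, other filters, the replicate number as a block, no sex term, 1 sex alone, a minimum change of 1.5-fold and leaving out libraries.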

Additional observations from a re-analysis of the deposited data

Results flagged for a closer look

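In 78 tests of the highest and lowest of 6 libraries, 1 per gene and condition, 11 values stood far from the others. Chance flags about 1 in 20 independent sets, but these tests share the same libraries, so an excess over chance cannot be read. Female leukemic replicate 1 gave 6 of the 11 values. It was far above the other leukemic libraries for Orc6, at 118 CPM, and Rpa3, at 105 CPM, both short transcripts. It was far below them for Mcm2, at 363 CPM, Mcm3, at 329 CPM, Pola1, at 38.9 CPM, and Rfc1, at 61.1 CPM. Male non-leukemic replicate 3 was far below the other non-leukemic libraries for Orc6, at 69.1 CPM, Cdc45, at 101 CPM, Gins1, at 27.9 CPM, and Rfc4, at 126 CPM. Female leukemic replicate 3 was far below the other leukemic libraries for Rrm2, at 479.8 CPM. No cause of these values was tested.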

How the results depend on the processing

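With the replicate block, 22 replication genes were lower in leukemic libraries, 10 in females and 5 in males. Without it the counts were 22, 12 and 4. The shares of all genes lower were 8.11%, 3.94% and 3.13% with the block and 9.2%, 4.59% and 4.04% without it. In females, leukemic and non-leukemic libraries of the same number deviated together with correlations of 0.042 to 0.079, and those of different numbers with -0.048 to -0.013. In males these ranges were -0.032 to 0.031 and -0.040 to 0.037. With 3 libraries a group, such small values cannot decide whether the numbers pair samples. The count of 22, beside 9.2% of all genes lower, was 21 with RLE (8.92%), 21 with limma-voom (9.67%) and 27 with DESeq2 (11.7%). It was 18 without a filter (4.08%), 23 with a filter of 5 CPM in 3 libraries (12.1%) and 23 without a sex term (9.17%). Against a minimum change of 1.5-fold it was 5 (3.43%), and 978 of all genes passed instead of 2822. It was 13 to 31 when each library was left out, and 13 only without male non-leukemic replicate 1. In these fits 6.14% to 12% of all genes were lower. Without both libraries that stood apart, 33 replication genes and 4717 of all genes passed, 25 and 2368 in females and 26 and 2728 in males. The shares of all genes lower were then 14.1%, 7.53% in females and 8.37% in males.

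In females, leaving out each library gave 2 to 20 replication genes and 504 to 1773 genes in all, against 12 and 1328, and DESeq2 gave 2359 genes in all. In males it gave 0 to 16 and 513 to 2087, against 4 and 1162, and DESeq2 gave 8 and 2053. A filter of 5 CPM gave 7, with 6.43% of all genes lower, and a fit of male libraries alone gave 2, with 3.8%. For the interaction DESeq2 called 23 genes and edgeR 0. For differences between females and males, edgeR called 0 genes, or 0 to 3 without single libraries, and DESeq2 called 120 in leukemic and 34 in non-leukemic libraries, none of them replication genes. At an unadjusted p under 0.05, edgeR had 1370 genes between sexes in leukemic and 769 in non-leukemic libraries, and 925 for the interaction.

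The direction changed for 1 of the 39 genes: the log2 fold change of Rfc5 ran from -0.18 to 0.0030 when each library was left out, above 0 without female leukemic replicate 3 (0.0030) and without male non-leukemic replicate 1 (0.0017), against -0.09 with all libraries. The other 38 kept their sign under 21 alternatives, whose scaling moved the median of all genes to between -0.02 and 0.02. Causes were not tested. Depth limited none of the 39 genes, whose levels were all above the floor of 3 counts per library, 0.1 to 0.177 CPM.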

Other observations

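The letters that resemble E2F sites were also searched in promoters of the related lists. They were found in 7 of 29 other replication factors with an entry, 24.1%, and in 1 of 25 mitosis genes, 4%, against 40.6% of the replication genes. Over the 39 genes the log2 fold change had a Spearman correlation of 0.27 with transcript length, and of 0.45 when female leukemic replicate 1 was left out of the fit. These are descriptions over genes that share their libraries.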
